A study of Mus musculus with 6 samples.

Results

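The SR proteins and the heterogeneous nuclear ribonucleoproteins (hnRNPs) are families of RNA-binding proteins that influence exon choice when a pre-messenger RNA is spliced. Their genes were taken from the 6 deposited tables as the protein-coding genes whose symbol begins with Srsf and a digit or with Hnrnp, which gave 31 of 54551 genes, 11 SR protein genes and 20 hnRNP genes. The tables hold RNA sequencing of granulosa cells, the follicle cells around the oocyte, from ovaries of C57BL/6 mice at postnatal day 21. All animals were primed with PMSG (5 IU, 48 h), which makes follicles grow, and then given hCG (5 IU, 6 h), which triggers ovulation through the luteinizing hormone receptor. The groups were 3 libraries labelled wild type and 3 labelled Gm12840-/-, called knockout here. The labels do not say how or where the long noncoding RNA gene Gm12840 was deleted, nor that each library came from its own animal, so the p-values speak to the spread among these libraries, which may be technical.

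SR proteins bind exonic enhancer sequences through RNA recognition motifs and recruit spliceosomal components through a tail rich in arginine and serine, which kinases phosphorylate. hnRNPs coat nascent transcripts and often act against SR proteins on exon choice, and several shuttle to the cytoplasm to take part in export, stability and translation. Many genes of both families limit their own level by splicing in an exon, or keeping an intron, that sends the transcript to nonsense-mediated decay.

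The targeted gene did not separate the groups. Gm12840 stood at 1.83, 0.566 and 0.365 FPKM (fragments per kilobase of gene, scaled by a total for each library) for wild type 1 to 3. It stood at 0.426, 0.611 and 1.45 FPKM for knockout 1 to 3, on 5 to 17 reads each. An exact permutation test, two-sided, gave p = 0.9 for Gm12840, and 3 against 3 cannot give less than 0.1. All directions below therefore rest on the labels. Recovered depth was 16392098 to 19465847 reads per library. The total behind FPKM was not this depth. It was 0.894, 0.939 and 1.12 times the recovered reads in wild type 1 to 3 and 1.12, 1.12 and 0.904 times in knockout 1 to 3. All 13 granulosa markers, among them Foxl2, Fshr and Inha, were above the filter on low values. Libraries that share a label differed in composition. Mitochondrially encoded genes took 0.227%, 0.311% and 2.08% of the reads in wild type 1 to 3 and 1.52%, 4.19% and 0.146% in knockout 1 to 3. The slope of log2(FPKM + 1) on log2 gene length was -0.26, -0.21 and -0.023 in wild type 1 to 3 and -0.090, 0.066 and -0.25 in knockout 1 to 3. In these bulk samples, fewer cells of a type and less RNA per cell cannot be told apart.

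The promoters of the most and the least abundant tested gene of each family are shown because the members span a wide range of levels. Each is the RefSeq window of 300 bases on GRCm38.p6, 250 before and 50 after the annotated start, and capitals mark matches on either strand to the CCAAT box, the GC box with the letters GGGCGG, or the ETS factor core with the letters CCGGAAG, with overlapping matches run together in Srsf5 (GC box and ETS) and Hnrnpu (GC boxes).
Srsf5, chr12:80945249-80945548, plus strand: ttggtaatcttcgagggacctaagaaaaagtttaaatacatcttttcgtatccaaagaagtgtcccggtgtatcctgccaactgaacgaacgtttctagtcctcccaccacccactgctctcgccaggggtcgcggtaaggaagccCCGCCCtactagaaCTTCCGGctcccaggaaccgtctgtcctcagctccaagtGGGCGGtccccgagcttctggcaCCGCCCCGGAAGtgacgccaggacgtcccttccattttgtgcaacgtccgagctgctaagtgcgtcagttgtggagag
Srsf1, chr11:88047123-88047422, plus strand: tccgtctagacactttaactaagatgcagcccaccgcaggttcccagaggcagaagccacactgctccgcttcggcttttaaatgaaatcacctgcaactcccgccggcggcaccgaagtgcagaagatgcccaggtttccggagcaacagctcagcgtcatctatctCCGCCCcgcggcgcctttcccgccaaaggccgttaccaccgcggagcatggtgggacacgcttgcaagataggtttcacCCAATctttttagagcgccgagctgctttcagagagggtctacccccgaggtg
Hnrnpa0, chr13:58128507-58128806, minus strand: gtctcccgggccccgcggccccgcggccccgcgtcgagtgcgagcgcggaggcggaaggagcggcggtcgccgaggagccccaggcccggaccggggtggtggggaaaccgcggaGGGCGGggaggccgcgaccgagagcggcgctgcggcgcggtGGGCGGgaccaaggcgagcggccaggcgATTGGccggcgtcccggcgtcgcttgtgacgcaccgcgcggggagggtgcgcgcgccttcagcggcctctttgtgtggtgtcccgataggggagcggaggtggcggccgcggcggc
Hnrnpu, chr1:178337766-178338065, minus strand: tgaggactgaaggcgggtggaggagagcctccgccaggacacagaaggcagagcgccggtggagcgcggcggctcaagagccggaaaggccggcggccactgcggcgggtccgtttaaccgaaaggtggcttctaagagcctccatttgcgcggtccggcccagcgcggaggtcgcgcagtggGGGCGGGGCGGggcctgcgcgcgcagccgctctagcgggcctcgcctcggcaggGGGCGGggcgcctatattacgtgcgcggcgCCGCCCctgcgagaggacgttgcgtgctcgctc
All 4 windows were rich in CpG dinucleotides, with 20 in Srsf5, 22 in Srsf1, 52 in Hnrnpa0 and 41 in Hnrnpu. Over the 41 windows of the 29 members in the table the median was 31, against 7 over 32851 windows of all genes. GGGCGG was in 34 of the 41 windows (82.9%, against 35.7% of all windows), CCAAT in 21 (51.2% against 37.4%) and CCGGAAG in 10 (24.4% against 8.86%). TATAAA, the core of the TATA box, was in 4 (9.76% against 13.6%), and the cyclic AMP response element TGACGTCA was in 0 of the 41 windows (1.79% of all windows). The windows of all genes were not limited to tested protein-coding genes. Whether the members differ from such genes in CpG or in these matches was not tested. A match is a string of letters, not a shown binding site, and the most and least abundant genes both carried the GC box.

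The members lay on 16 chromosomes, and some sat close to another of the set. Hnrnpd and Hnrnpdl, paralogs that bind AU-rich elements, were 54638 bases apart on chromosome 5. Hnrnpa0 and Hnrnpk were 262585 bases apart on chromosome 13. Hnrnpll and Srsf7 were 137754 bases apart on chromosome 17, and Srsf10 and Hnrnpr 441033 bases apart on chromosome 4. In the GENCODE M21 annotation, 9 of 11 SR protein genes had a transcript classed for nonsense-mediated decay (81.8%), as did 10 of 20 hnRNP genes (50%), against 28.6% of 10642 other tested protein-coding genes. A transcript with a retained intron was annotated for 8 SR protein genes (72.7%) and 14 hnRNP genes (70%), against 59.0% of the others. The deposited values sum all transcripts of a gene, so a productive transcript and one bound for decay cannot be told apart in them.

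**Figure D1:**
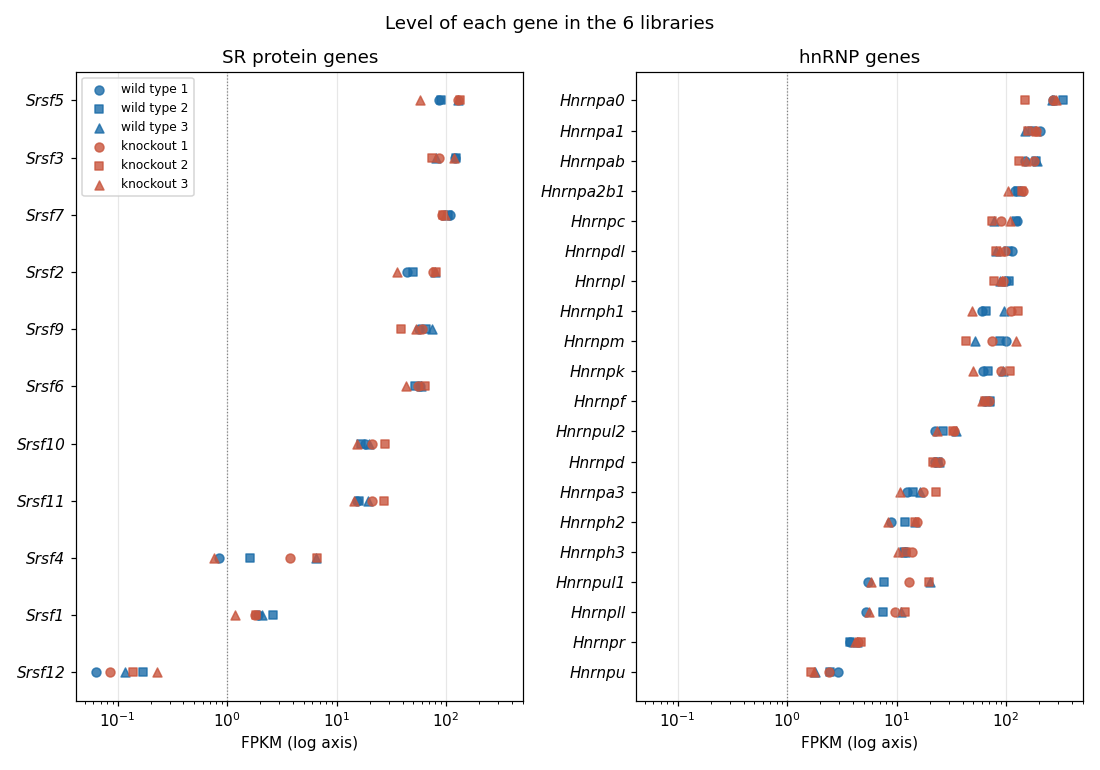
FPKM of the 11 SR protein genes (left) and 20 hnRNP genes (right) on a log axis, 1 point per library, with blue for wild type, red for knockout and the shape for the replicate number. The dotted line is the filter at 1 FPKM, and Srsf12 is the gene left of it in all 6 libraries.

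Among the SR proteins, Srsf5, Srsf3 and Srsf7 were the most abundant. Srsf5 (ENSMUSG00000021134, chromosome 12), an activator of exon inclusion, stood at 85.9, 89.7 and 129 FPKM in wild type 1 to 3 and at 129, 133 and 57.5 FPKM in knockout 1 to 3. Wild type 3, knockout 1 and knockout 2 were high, knockout 3 was the lowest, and the groups overlapped. Srsf3 (ENSMUSG00000071172, chromosome 17), the smallest classical SR protein and an adaptor for mRNA export, stood at 121, 124 and 81.1 FPKM in wild type 1 to 3. It stood at 87.0, 74.7 and 118 FPKM in knockout 1 to 3. Its order was nearly the reverse of that of Srsf5, with wild type 1 and 2 and knockout 3 high. Srsf7 (ENSMUSG00000024097, chromosome 17), an export adaptor that also carries a zinc knuckle, stood at 110, 104 and 98.8 FPKM in wild type 1 to 3 and at 91.6, 93.4 and 97.4 FPKM in knockout 1 to 3. Every knockout library was below every wild-type library for Srsf7, by a narrow margin.

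A middle tier held Srsf2, Srsf9, Srsf6, Srsf10 and Srsf11. Srsf2, which binds exonic enhancers and stays in the nucleus, had a mean of 61.2 FPKM over the 6 libraries. It ranged from 35.9 in knockout 3 to 81.5 in knockout 2, and genes on the opposite strand overlap 25.3% of its exonic bases. Srsf9 (ENSMUSG00000029538, chromosome 5), a paralog of Srsf1 with a short tail, stood at 57.1, 65.1 and 74.7 FPKM in wild type 1 to 3 and 59.6, 39.0 and 52.8 FPKM in knockout 1 to 3. Only knockout 1 lay within the wild-type range. Srsf6 had a mean of 55.4 FPKM and varied by a ratio of 1.497 between libraries. Srsf10, which represses splicing when it is dephosphorylated, had a mean of 19.8 FPKM. Srsf11 (ENSMUSG00000055436, chromosome 3), an SR-related splicing factor, stood at 15.2, 16.0 and 19.4 FPKM in wild type 1 to 3. It stood at 21.2, 26.9 and 14.5 FPKM in knockout 1 to 3, so knockout 1 and 2 were above and knockout 3 below all wild-type libraries.

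The lowest tier held Srsf4, Srsf1 and Srsf12. Srsf4 (ENSMUSG00000028911, chromosome 4), one of the largest SR proteins, stood at 0.851, 1.61 and 6.47 FPKM in wild type 1 to 3 and at 3.77, 6.64 and 0.766 FPKM in knockout 1 to 3. These values rest on 42 to 503 reads, and their 8.66-fold spread between libraries was the widest of the 31 genes. An opposite-strand gene, Gm12992, overlaps 43.0% of the exonic bases of Srsf4. The sources used here do not state that reads were counted by strand, so the level of Srsf4 and of the other overlapped members is uncertain there. Srsf1 (ENSMUSG00000018379, chromosome 11), the founding SR protein, stood at 1.92, 2.61 and 2.06 FPKM in wild type 1 to 3 and at 1.79, 1.82 and 1.17 FPKM in knockout 1 to 3, on 103 to 257 reads. All 3 knockout libraries were below all wild-type libraries. The mean of Srsf1, 1.90 FPKM, was above only 16.6% of the tested genes, although Srsf9 stood above 91.2% of them. Srsf12, a relative of Srsf10, stood at 0.0642 to 0.227 FPKM on 3 to 11 reads and fell under the filter, so 10 of the 11 SR protein genes were tested.

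The A/B hnRNPs were the most abundant of the family. Hnrnpa0 (ENSMUSG00000007836, chromosome 13), an AU-rich element binding protein encoded by 1 annotated transcript, stood at 269, 332 and 264 FPKM in wild type 1 to 3 and at 267, 148 and 282 FPKM in knockout 1 to 3. Knockout 2 was far below the other 5 libraries. Hnrnpa1 (ENSMUSG00000046434, chromosome 15), which represses exons and shuttles between nucleus and cytoplasm, stood at 205, 171 and 148 FPKM in wild type 1 to 3. It stood at 187, 159 and 187 FPKM in knockout 1 to 3, all inside the wild-type range. Hnrnpab (ENSMUSG00000020358, chromosome 11) stood at 150, 188 and 191 FPKM in wild type 1 to 3 and at 180, 131 and 152 FPKM in knockout 1 to 3. Phykpl on the opposite strand overlaps 29.1% of its exonic bases. Hnrnpa2b1, an RNA transport and splicing protein, had a mean of 128 FPKM and varied 1.38-fold. Hnrnpa3 (ENSMUSG00000059005, chromosome 2) was the low member, at 12.5, 14.0 and 16.4 FPKM in wild type 1 to 3 and 17.3, 22.9 and 10.8 FPKM in knockout 1 to 3. Knockout 1 and 2 were above and knockout 3 below all wild-type libraries for it.

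Hnrnpc (ENSMUSG00000060373, chromosome 14), which binds uridine tracts in nascent transcripts, stood at 124, 122 and 77.3 FPKM in wild type 1 to 3 and at 89.7, 74.4 and 108 FPKM in knockout 1 to 3, an order close to that of Srsf3. In the D group, Hnrnpdl had a mean of 94.0 FPKM and Hnrnpd, known as AUF1, 23.2 FPKM. Hnrnpd was the steadiest member, with 1.17-fold between its lowest and highest library. The F/H proteins bind G-rich tracts. Hnrnph1 (ENSMUSG00000007850, chromosome 11) stood at 59.9, 65.8 and 96.6 FPKM in wild type 1 to 3 and at 111, 129 and 48.5 FPKM in knockout 1 to 3. Its knockout libraries held both the highest values and the lowest. Hnrnpf, at a mean of 65.8 FPKM, varied 1.18-fold, and genes on the opposite strand overlap 26.5% of its exonic bases. Hnrnph2 and Hnrnph3 had means of 12.4 and 12.0 FPKM.

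Hnrnpk, a KH-domain protein that binds C-rich sequence, had a mean of 78.4 FPKM and ranged from 49.7 in knockout 3 to 108 in knockout 2. Hnrnpl, a repressor that binds CA repeats, had a mean of 92.5 FPKM. Its paralog Hnrnpll (ENSMUSG00000024095, chromosome 17) stood at 5.25, 7.46 and 11.0 FPKM in wild type 1 to 3 and 9.62, 11.9 and 5.56 FPKM in knockout 1 to 3, with the groups overlapping. Hnrnpm had a mean of 79.96 FPKM and was the hnRNP gene highest in knockout 3, at 122 FPKM, and it was lowest in knockout 2, at 43.1 FPKM. March2 on the same strand overlaps 14.7% of the exonic bases of Hnrnpm in GENCODE M21. Those exons cover 7956 bases against a deposited length of 4701, so the overlap among the counted bases is uncertain. Hnrnpr, a paralog of Syncrip, had a mean of 4.20 FPKM.

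In the U group, Hnrnpul2 and Hnrnpul1 had means of 28.9 and 11.9 FPKM, above 83.1% and 66.1% of the tested genes. Hnrnpul1 (ENSMUSG00000040725, chromosome 7) stood at 5.46, 7.62 and 20.1 FPKM in wild type 1 to 3 and at 12.9, 19.7 and 5.81 FPKM in knockout 1 to 3, the widest spread among hnRNP genes at 3.69-fold. Hnrnpu (ENSMUSG00000039630, chromosome 1), a nuclear scaffold protein also known as SAF-A, stood at 2.92, 2.49 and 1.80 FPKM in wild type 1 to 3. It stood at 2.40, 1.67 and 1.76 FPKM in knockout 1 to 3, on 314 to 520 reads. Its mean was above only 20.5% of the tested genes, and Cox20 on the opposite strand overlaps 6.93% of its exonic bases.

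The order of levels depends on the gene length used. The deposited length equals the union of all annotated exons in 27 of the 31 members, retained introns included. Per kilobase of the longest coding transcript, a choice made after seeing the data, Hnrnpa2b1 rose from rank 4 to rank 1, at 488 in place of 128, since its deposited length is 3.81 times that transcript. Hnrnpll went from 8.46 to 31.7 on this scale. Srsf1, Hnrnpu and Srsf12 held the last 3 places on both scales.

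Near-identical pseudogene copies hold reads beside some members. An annotated pseudogene was counted as a copy where at least 300 bases aligned to a member's longest coding transcript at 90% identity or more, and 74 such copies of 14 members were in the tables. Coding stretches of 120 bases are shown for 2 pairs because they show how few bases tell gene from copy. They are sense strand, 5′ to 3′, and capitals mark the bases that differ. The copies are Gm9761 (chromosome 3, 116560935 to 116561426, minus strand) and Gm12960 (chromosome 4, 111807358 to 111808423, minus strand), the latter second in level among the copies of Hnrnpa3, in GRCm38 coordinates.
Srsf3, coding bases 129 to 248: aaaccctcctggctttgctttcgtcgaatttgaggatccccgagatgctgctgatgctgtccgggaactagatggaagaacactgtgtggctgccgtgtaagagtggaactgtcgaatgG
Gm9761: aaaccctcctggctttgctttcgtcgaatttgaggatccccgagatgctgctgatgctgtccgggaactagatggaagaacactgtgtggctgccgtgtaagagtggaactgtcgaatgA
Hnrnpa3, coding bases 248 to 367: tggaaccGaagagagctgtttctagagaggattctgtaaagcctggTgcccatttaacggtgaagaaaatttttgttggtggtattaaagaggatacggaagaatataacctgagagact
Gm12960: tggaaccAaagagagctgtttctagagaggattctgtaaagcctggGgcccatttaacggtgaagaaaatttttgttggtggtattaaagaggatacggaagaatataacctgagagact
The 492 bases of Gm9761 matched the whole coding sequence of Srsf3 with 2 mismatches and no gap. The Srsf3 stretch differs from its copy at 1 base and the Hnrnpa3 stretch at 2 bases.

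Hnrnpa3 had the most copies, 36, and those copies were given more reads than the gene. Over the 6 libraries they held 10038 reads and Hnrnpa3 held 9109, so the copies took 52.4% of the sum. Their share was 52.1%, 54.2% and 56.0% in wild type 1 to 3 and 54.6%, 44.6% and 54.4% in knockout 1 to 3, with knockout 2 the lowest. For Hnrnpk the 2 copies took 13.5% of the sum, for Hnrnpa1 the 15 copies took 8.35% and for Srsf3 the 3 copies took 3.44%. The counting rule for reads that match several places is not given in the sources used here, so the levels of these members are uncertain, that of Hnrnpa3 most.

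**Figure D2:**
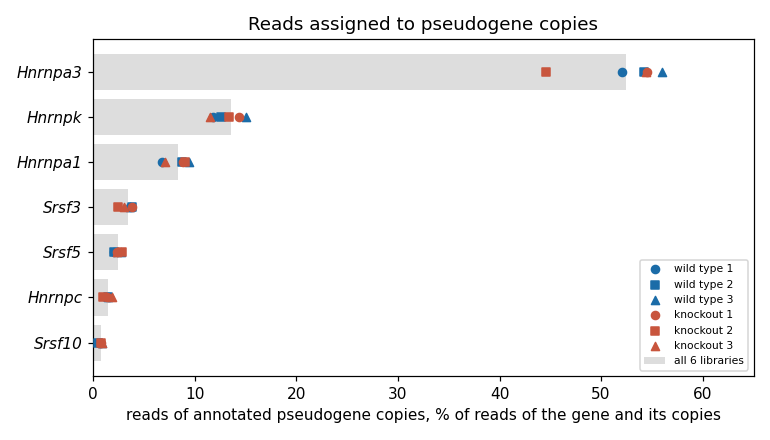
Reads assigned to annotated pseudogene copies as a percent of the reads of a gene and its copies, for the 7 members with the largest shares. Bars pool the 6 libraries and points are single libraries, and Hnrnpa3 is the member whose bar passes 50%.

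The design's comparison asked whether any member differed by labelled genotype. In limma on log2(FPKM + 1) over 12495 genes, 0 of the 10 tested SR protein genes and 0 of the 20 hnRNP genes were called at a Benjamini-Hochberg adjusted p under 0.05, as were 0% of all genes. At an unadjusted p under 0.05 there were 0 members, against 0.728% of all tested genes. By limma-voom on recovered reads 0 members and 0% of all tested genes were called. At an unadjusted p under 0.05 limma-voom had 0 members, against 75 of the 12495 tested genes. Adjusted p-values of the members ran from 0.993 to 1.00 by limma. Of the SR protein genes 4 were positive and 6 negative, with a median log2 fold change of -0.034. Of the hnRNP genes 10 were positive and 10 negative, with a median of 0.010, and over all tested genes the median was -0.035. With library totals as the scaling these 3 medians became 0.052, 0.094 and 0.036, so the family medians moved with that of all tested genes. The SR median changed sign in that shift and the hnRNP median did not.

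Without replicate 3 of both groups, limma called 3 members, Srsf4 (log2 fold change 1.46, adjusted p 0.0199), Hnrnph1 (0.92, adjusted p 0.0462) and Hnrnpul1 (1.18, adjusted p 0.0239), all higher in knockout. Of all tested genes, 27.6% were called there, 11.3% as higher and 16.3% as lower. With the length slope as a covariate 0 members and 0.008% of all tested genes were called, and these 3 members stood at -0.26 for Srsf4, 0.0068 for Hnrnph1 and -0.18 for Hnrnpul1. Without replicate 3, mitochondrial reads were 1.52% and 4.19% in knockout 1 and 2, against 0.227% and 0.311% in wild type 1 and 2. The length slopes were -0.090 and 0.066 in that knockout pair, against -0.26 and -0.21 in the wild-type pair. Labelled genotype and these library differences cannot be told apart there. The part of the length slope in the values of these members was not tested further.

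The SR protein genes with the largest differences, given as log2 fold change with its standard error, were Srsf9 (-0.38 ± 0.27), Srsf1 (-0.31 ± 0.21), Srsf4 (0.28 ± 0.69), Srsf11 (0.26 ± 0.28) and Srsf3 (-0.22 ± 0.32). Srsf9 averaged 65.6 ± 8.80 FPKM in wild type and 50.5 ± 10.5 in knockout (SD, n = 3 each), with a 95% interval of -1.02 to 0.26 for its log2 fold change. Srsf1 averaged 2.20 ± 0.364 and 1.59 ± 0.366 FPKM (SD, n = 3 each), with an interval of -0.80 to 0.18. Its unadjusted p by limma, 0.182, was the smallest of the members. Srsf5, the most abundant, had a log2 fold change of -0.0040 ± 0.41, a value near 0 that followed the shift of all genes to 0.083 with library totals and 0.061 with the upper quartile as the scaling.

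Among hnRNP genes the largest differences were those of Hnrnpa0 (-0.36 ± 0.37) and Hnrnph1 (0.29 ± 0.43). Hnrnpul1 (0.25 ± 0.57), Hnrnpc (-0.23 ± 0.31), Hnrnpu (-0.20 ± 0.22), Hnrnpab (-0.19 ± 0.29), Hnrnpa3 (0.18 ± 0.30) and Hnrnpll (0.17 ± 0.35) followed. Hnrnpa0 averaged 288 ± 37.7 FPKM in wild type and 232 ± 73.5 in knockout (SD, n = 3 each), and the interval of its log2 fold change was -1.24 to 0.53. Its value was -0.063 without knockout 2 and -0.53 without knockout 3. Hnrnph1 averaged 74.1 ± 19.7 and 96.2 ± 42.2 FPKM, with an interval of -0.75 to 1.32, and its value was 0.021 without knockout 2 and 0.72 without knockout 3. The fold changes are on the log2(FPKM + 1) scale, which understates those of low genes such as Srsf1. The median 95% interval of the 30 tested members reached 0.67 to either side, so changes smaller than that were not detectable here for a typical member. The interval is not adjusted for the 12495 genes tested, so larger changes could also go uncalled. Over all tested genes the log2 fold changes ran from -2.19 to 2.20, and 0 genes were called.

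The groups did not overlap for 2 members, Srsf1 and Srsf7, both lower in knockout, where 2.08% of all tested genes did not overlap in that direction and 3.53% in either. Srsf7 averaged 104 ± 5.36 FPKM in wild type and 94.1 ± 2.98 in knockout (SD, n = 3 each), with an adjusted p of 0.993 by limma. No hnRNP gene was free of overlap.

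**Figure D3:**
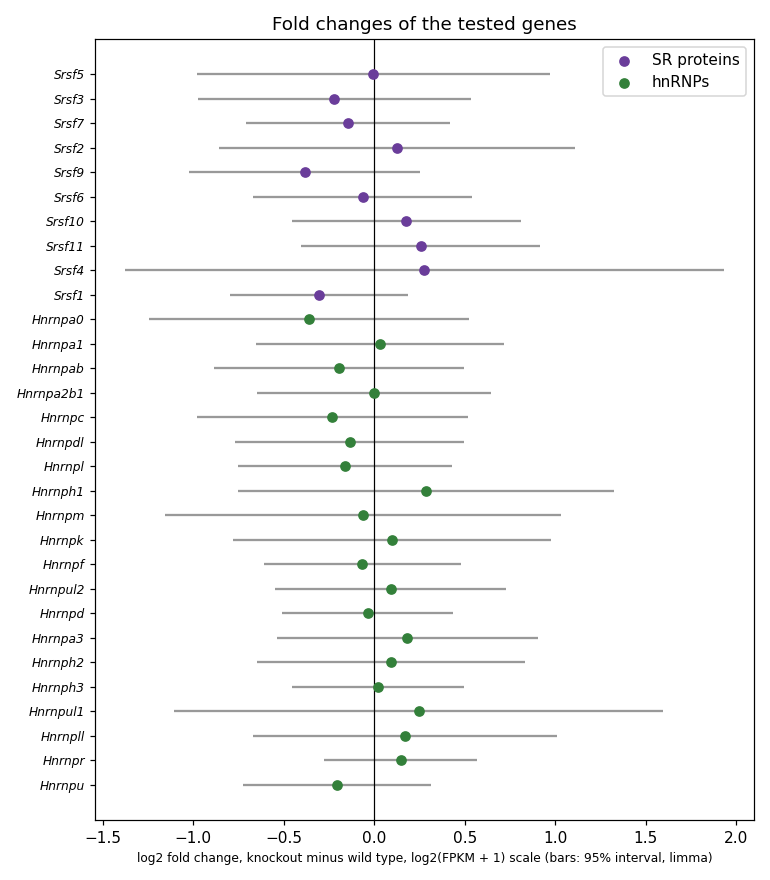
Log2 fold change of knockout minus wild type on the log2(FPKM + 1) scale for the 30 tested members, in order of level within each family, with bars for the 95% interval from limma. Every bar crosses 0, and Srsf4 has the widest.

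Libraries that share a label stood apart from each other. The SR protein genes shared a low in knockout 3, the lowest library for 7 of the 10 tested (70%, against 22.0% of all tested genes). Knockout 2 was the highest for 6 of the 10 (60% against 29.7%). The family's median deviation from each gene's own mean was -0.043, -0.12 and 0.10 in wild type 1 to 3 and 0.087, 0.32 and -0.34 in knockout 1 to 3 on the log2 scale. Summed over the family, SR protein transcripts stood at 511, 521 and 571 FPKM in wild type 1 to 3 and at 547, 549 and 436 FPKM in knockout 1 to 3. Without knockout 3, the median log2 fold change of the SR protein genes went from -0.034 to 0.24. Knockout 3 also had the lowest share of mitochondrial reads, 0.146%, and knockout 2 the highest, 4.19%, and the part of that share in these values was not tested.

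The hnRNP genes were split between these libraries. Knockout 3 was the lowest library for 7 of 20 (35.0%, against 22.0% of all tested genes) and knockout 2 for 7 (35.0%, against 36.9% of all tested genes). Their median deviation stayed between -0.16 in knockout 3 and 0.12 in knockout 1, and their summed level ran from 1296 FPKM in knockout 2 to 1552 FPKM in wild type 2. Hnrnph1, Hnrnpk and Hnrnpa3 were highest in knockout 2 and lowest in knockout 3, as were Srsf2, Srsf4, Srsf5, Srsf6, Srsf10 and Srsf11. In all, 9 of the 30 tested members had that order (30.0%, against 13.3% of all tested genes). Hnrnpm had the opposite one, and Hnrnpa0, Hnrnpc and Srsf3 were lowest in knockout 2. The median ratio of highest to lowest library was 1.88 for SR protein genes and 1.61 for hnRNP genes, against 2.34 over all tested genes.

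**Figure D4:**
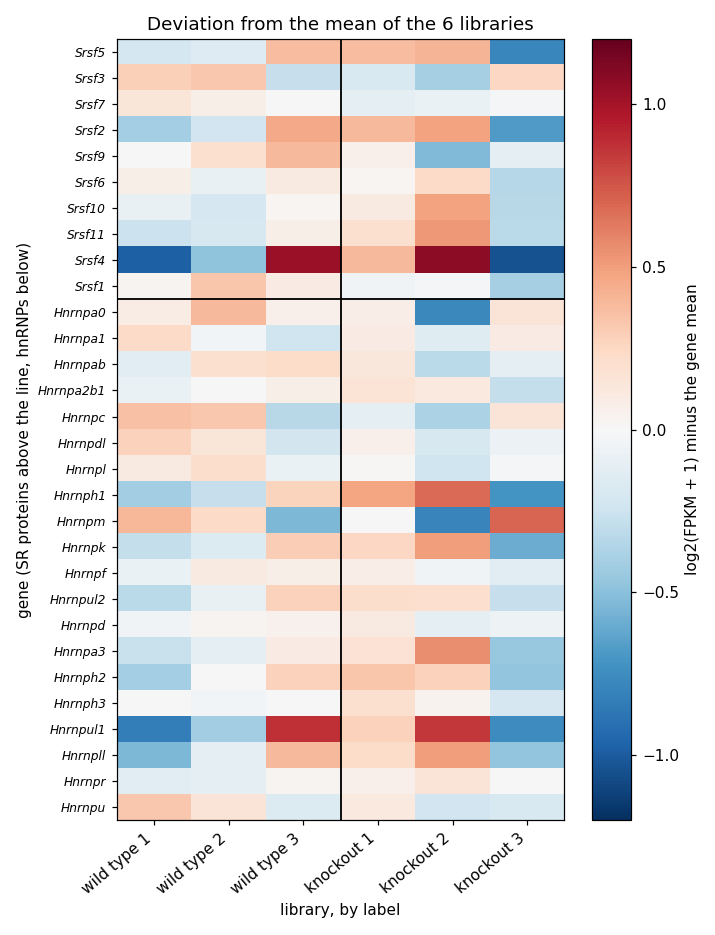
Deviation of log2(FPKM + 1) from the gene's mean over the 6 libraries (colour, red above and blue below) for the 30 tested members, with SR proteins above the line and hnRNPs below. Srsf4 and Hnrnpul1 have the strongest colours, high in wild type 3 and knockout 2, and Hnrnpm runs opposite to them.

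Genes that act with the members were read from the same fit. None of the lists had a member called by limma, as 0% of all tested genes were, or at an unadjusted p under 0.05. Signs are those at the deposited scaling. At that scaling 5628 of the 12495 tested genes were positive and 6867 negative. Kinases, phosphatases and the importer of SR proteins were positive in 9 of 12 tested, with a median log2 fold change of 0.15, and SR-related splicing proteins in 13 of 20, with a median of 0.23. Scaf11, an SR-related protein of the latter list, stood at 8.34, 7.44 and 11.0 FPKM in wild type 1 to 3 and at 12.2, 17.97 and 10.5 FPKM in knockout 1 to 3 (unadjusted p = 0.088 by limma). Knockout 3 lay inside its wild-type range. Ppp1ca, a catalytic subunit of protein phosphatase 1, stood at 8.01, 12.3 and 9.07 FPKM against 9.77, 34.7 and 7.25 FPKM, high in knockout 2 alone.

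Relatives of the hnRNPs under other symbols were positive in 12 of 25, with a median of -0.037. Of these Cirbp, a cold-inducible RNA-binding protein, stood at 44.9, 37.6 and 18.2 FPKM in wild type 1 to 3 and 19.5, 10.9 and 54.9 FPKM in knockout 1 to 3. Other regulators of alternative splicing were positive in 14 of 16, with a median of 0.14. Among them Qk, the quaking RNA-binding protein, stood at 4.42, 5.06 and 10.2 FPKM against 9.28, 16.2 and 4.84 FPKM, so Qk and Cirbp had nearly opposite orders across libraries. Celf1 of this list was listed at 0 in all 6 libraries. With the counting rule not known, that value does not show that its RNA was absent, and this was not tested.

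Proteins of the U1 and U2 particles and U2AF were negative in 20 of 23, with a median of -0.28. Snrpf, a ring protein of spliceosomal particles, stood at 105, 88.6 and 47.9 FPKM in wild type 1 to 3 and 59.1, 19.0 and 87.9 FPKM in knockout 1 to 3. The summed level of this list was 2028, 1801 and 1014 FPKM in wild type 1 to 3 and 1163, 806 and 1976 FPKM in knockout 1 to 3. It was lowest in knockout 2 and highest in wild type 1, and the groups overlapped. Nonsense-mediated decay factors were negative in 9 of 15, with a median of -0.055. Smg1, the kinase of that pathway, stood at 1.37, 1.43 and 3.54 FPKM against 2.87, 8.11 and 1.38 FPKM, an order like that of Srsf4. For each gene named from these lists other than Celf1, which was not tested, the adjusted p was 0.993 by limma and the groups overlapped. Among genes not named, the groups did not overlap for 1 of 25 tested hnRNP relatives and 2 of 16 other splicing regulators. The same held for 1 of 23 in the U1, U2AF and U2 list and 0 in the other lists, against 3.53% of all tested genes.

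The 13 granulosa markers summed to 6530 to 12210 FPKM in wild type and 4828 to 9376 FPKM in knockout. The part of other cell types, whose markers follow, was not tested. The stromal, pericyte and smooth muscle list had 9 of 9 tested markers positive, with a median of 0.49, and the summed level of the 12 listed was 62.5 to 120 FPKM in wild type and 89.8 to 114 FPKM in knockout. The 7 endothelial markers summed to 6.67 to 15.5 FPKM in wild type and 13.0 to 18.7 FPKM in knockout, with 5 of 5 tested positive. Of these, 1 was at an unadjusted p under 0.05 by limma, against 0.728% of all tested genes. The groups did not overlap for 2 of the 9 tested stromal-list markers and 1 of the 5 endothelial ones. They overlapped for every tested marker of the other cell types, and 3.53% of all tested genes did not overlap. Of all 12495 tested genes, 5628 were positive and 6867 negative. All 5 erythroid markers were negative, and they summed to 613 to 4455 FPKM in wild type and 473 to 3512 FPKM in knockout. Oocyte markers were negative in 7 of 8 and summed to 242 to 438 and 221 to 386 FPKM. Theca markers were positive in 4 of 5 and summed to 643 to 885 and 480 to 685 FPKM, and leukocyte markers in 2 of 3, with 29.7 to 46.1 and 30.0 to 42.6 FPKM. No listed marker was at 0 in all 6 libraries.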

How the data were processed

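Granulosa cell RNA was sequenced with an Illumina TruSeq kit, per the labels' protocols. The authors deposited 1 table per library of FPKM values for 54551 genes. HISAT2 2.0.5 and mm10 are named per the submitters' processing notes. The counting tool, the scaling behind FPKM and the rule for multiply matching reads were not found in those notes. FPKM times gene length fell on whole multiples of 1 read, within 0.01 reads, so reads were recovered.

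Genes over 1 FPKM in at least 3 of 6 libraries were tested with limma 3.58.1 (R 4.3.3, variance trend) on log2(FPKM + 1), all libraries, genotype as the only term, two-sided, Benjamini-Hochberg threshold 0.05. The same kind of limma fit was tried on simulated counts with known changes. Those counts had no differences in composition between libraries, so the trial does not cover the differences seen here. Alternatives were other pseudocounts, filters, scalings and biotypes, limma-voom on recovered reads, a replicate block, libraries left out and the length slope of each library as a covariate.

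Members and lists were chosen with earlier results of these data known. All members are named by level. Fold changes are given for the most abundant member of each family and the 5 SR and 8 hnRNP genes with the largest values. Other genes are named as the largest absolute fold change of each list. Annotation was GENCODE M21 on GRCm38, promoters were from RefSeq, and copies were aligned with BLAST+ 2.17.0. Of the list genes, the symbol Rbm23 had no match in the tables.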

Additional observations from a re-analysis of the deposited data

How the results depend on the processing

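Of 235 values of the 14 printed fold changes under the alternatives, 216 kept their direction and side of the threshold, 16 turned and 3 passed it, and 9 of the 14 genes never turned. Srsf5, at -0.0040, turned without replicate 3 of both groups (0.57) and, moving with all genes (median -0.035 to 0.036 and 0.018), with library totals (0.083) and the upper quartile (0.061). With the length slope as a covariate, Srsf4 (-0.26), Hnrnpul1 (-0.18), Hnrnpa3 (-0.0015) and Hnrnpll (-0.072) turned and 1 gene was called over all. Without replicate 3 of both groups, 3451 genes were called, with 1 SR protein gene and 2 hnRNP genes, and the median SR log2 fold change was 0.29. The causes were not tested. Leaving out 1 library at a time called 0 genes by limma, and the values ran from -0.21 to 0.39 for Srsf5, -0.19 to 0.87 for Srsf4, -0.12 to 0.75 for Hnrnpul1, -0.059 to 0.45 for Hnrnpll, -0.050 to 0.46 for Hnrnpa3, -0.53 to -0.063 for Hnrnpa0 and 0.021 to 0.72 for Hnrnph1. The others kept their sign, at 0.061 to 0.48 for Srsf11, -0.42 to -0.076 for Srsf3, -0.51 to -0.21 for Srsf9, -0.37 to -0.18 for Srsf1, -0.45 to -0.097 for Hnrnpc, -0.34 to -0.095 for Hnrnpu and -0.31 to -0.084 for Hnrnpab. The medians ran from -0.16 to 0.24 for SR protein genes, the latter without knockout 3, and from -0.074 to 0.061 for hnRNP genes. With the replicate block 0 genes were called and the medians stayed at -0.034 and 0.010. Deviations of same-numbered libraries correlated at -0.42, -0.67 and -0.89, and in 0 of 6 cases was the own number the best match. No pairing by number was seen. The large differences between libraries of the same label enter these correlations too, so a smaller effect shared by a number could be hidden. Depth limits Srsf12, at 3 to 11 reads, and Srsf4 and Srsf1 among the tested members.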
